A study of Mus musculus with 8 samples.

Results

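Atf4, Atf5, Ddit3, Ddit4, Trib3, Chac1, Asns, Sesn2, Ppp1r15a and Xbp1 are regulators and target genes of the integrated stress response and the unfolded protein response. These 10 genes were taken by their symbols and not by a rule on measured values, though earlier results of these data were known. All 10 were found among the 17644 gene symbols of the expression table. Expression was measured in cortex bordering a surgical cavity by CAGE, cap analysis of gene expression, a method that reads short tags at the capped 5′ end of each RNA. All mice were male C57BL/6NCrSlc animals aged 11 weeks at surgery, and in every one the motor cortex had been opened and tissue aspirated to leave a small cavity. The brain was removed either at once, here called no delay (4 samples), or 1 week after the lesion (4 samples), and tissue within 1 mm of the cavity was kept. Both groups therefore carry the lesion, and neither is uninjured cortex. Atf5, Ddit3 and Sesn2 were higher at 1 week. Trib3, with few reads, was higher in every 1-week library than in any no-delay library, but narrowly (lowest 0.60 CPM, highest 0.59 CPM). The other 6 genes, among them Atf4 and Xbp1, did not pass the test across all genes.

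In the integrated stress response, kinases that sense amino acid shortage, unfolded protein, double-stranded RNA or haem shortage phosphorylate the translation factor eIF2. General protein synthesis then falls, while a few mRNAs with upstream open reading frames, those of Atf4 and Atf5 among them, are translated better. ATF4 switches on genes for amino acid supply, and together with CHOP, the product of Ddit3, genes that limit growth or favour cell death. The unfolded protein response shares 1 of these kinases, PERK, and adds the sensors IRE1, which splices the Xbp1 mRNA, and ATF6. Both responses are known in injured brain, in neurons and in glia. CAGE tags count mRNA start sites, so neither eIF2 phosphorylation, nor translation, nor Xbp1 splicing is seen in these values.

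The 8 libraries held 8278855 to 13998941 reads, and levels are given in CPM, which scales each library's gene reads to a common total. The library columns of a group are told apart only by a tag of 6 bases. Both groups have the same 4 tags, and no label says whether equal tags mark paired libraries. Values for each group are listed with library acagtg first, then library atcacg, library cgatgt and library tgacca. A further tag of 3 bases differs between the groups, CAC for no delay and GCT for 1 week, so whatever that tag stands for cannot be told apart from the time after the lesion. The protocol gives 4 brains for each time, but no label ties a column to an animal, and p-values then measure only the spread between these samples. Of 14718 genes tested, 36.8% were called at an adjusted p under 0.05 (limma on log2(CPM + 1), Benjamini-Hochberg over all genes tested), 23.4% higher and 13.4% lower at 1 week. Over all genes tested the log2 fold change had a median of 0.06. Among the tested genes 210 were under 1 CPM in all no-delay libraries, so that the filter on low values kept them only because they were high at 1 week. The share of the calls that were higher was 63.6% with CPM as deposited and 43.4% after quantile normalization, which moved the median of all genes by -0.10 on the log2 scale.

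Markers of several cell types differed between the groups, and the labelled tissue, brain, showed neuronal and glial markers in all libraries. Summed over 10 markers each, microglia and macrophage markers lay at 284 to 304 CPM without delay and at 1258 to 1893 CPM at 1 week, with 10 of 10 called higher. Astrocyte markers lay at 2274 to 2600 and at 4599 to 5242 CPM, with 9 of 10 called higher, and endothelial markers at 192 to 203 and at 291 to 399 CPM, with 8 of 10 called higher. Oligodendrocyte markers lay at 1540 to 3478 CPM without delay and at 2426 to 4081 CPM at 1 week (6 of 10 called higher). Neuron markers lay at 6868 to 7663 CPM without delay and at 6195 to 6566 CPM at 1 week, with 3 of 10 called lower and 0 higher. Of 10 plasma cell and B cell markers 7 were in the table, and their sum lay at 2.00 to 3.65 CPM without delay and at 6.78 to 9.90 CPM at 1 week. No call is counted for them, since Cd79b and Sdc1 passed the filter on low values only through the 1-week libraries and Prdm1 reached 1 CPM in 1 no-delay library. Red blood cell markers ranged from 659 to 1562 CPM and from 348 to 5361 CPM, and 0 of 5 were called. The mitochondrial transcripts' share of reads was 3.0% to 5.38% without delay and 2.40% to 3.05% at 1 week. No marker in the table was at 0 in every library. In bulk tissue, fewer cells of a type and less RNA per cell cannot be told apart, and the part of these cell types in the values below was not tested.

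Among the 10 genes, 9 reached 1 CPM in at least 4 libraries and were tested, and 1, Trib3, was not. Limma called 3 of the 9 higher at 1 week, beside 23.4% of all genes tested, and 0 lower, beside 13.4%. At an unadjusted p under 0.05, 4 of the 9 passed, the additional gene being Atf4. On reads recovered from the CPM values, edgeR called 3 (19.9% of all genes higher), DESeq2 called 2 (19% of all genes higher) and limma-voom called 3 (19.8% of all genes higher), and each called 0 lower. The median log2 fold change of the 9 genes was 0.18, and 8 of the 9 were above 0. In 3 of the 10 genes, Atf5, Sesn2 and Trib3, the lowest 1-week library lay above the highest no-delay library, which was so for 20.6% of all genes in the table. Among tested genes that share was 22.7%, and Atf5 and Sesn2 were the 2 of the 9 with it. A share of 3 in 9 genes (33.3%) lies near that of genes in general. Ranked by log2 fold change, 10.2% of all tested genes lay above Atf5 and 14.9% above Sesn2.

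**Figure D1:**
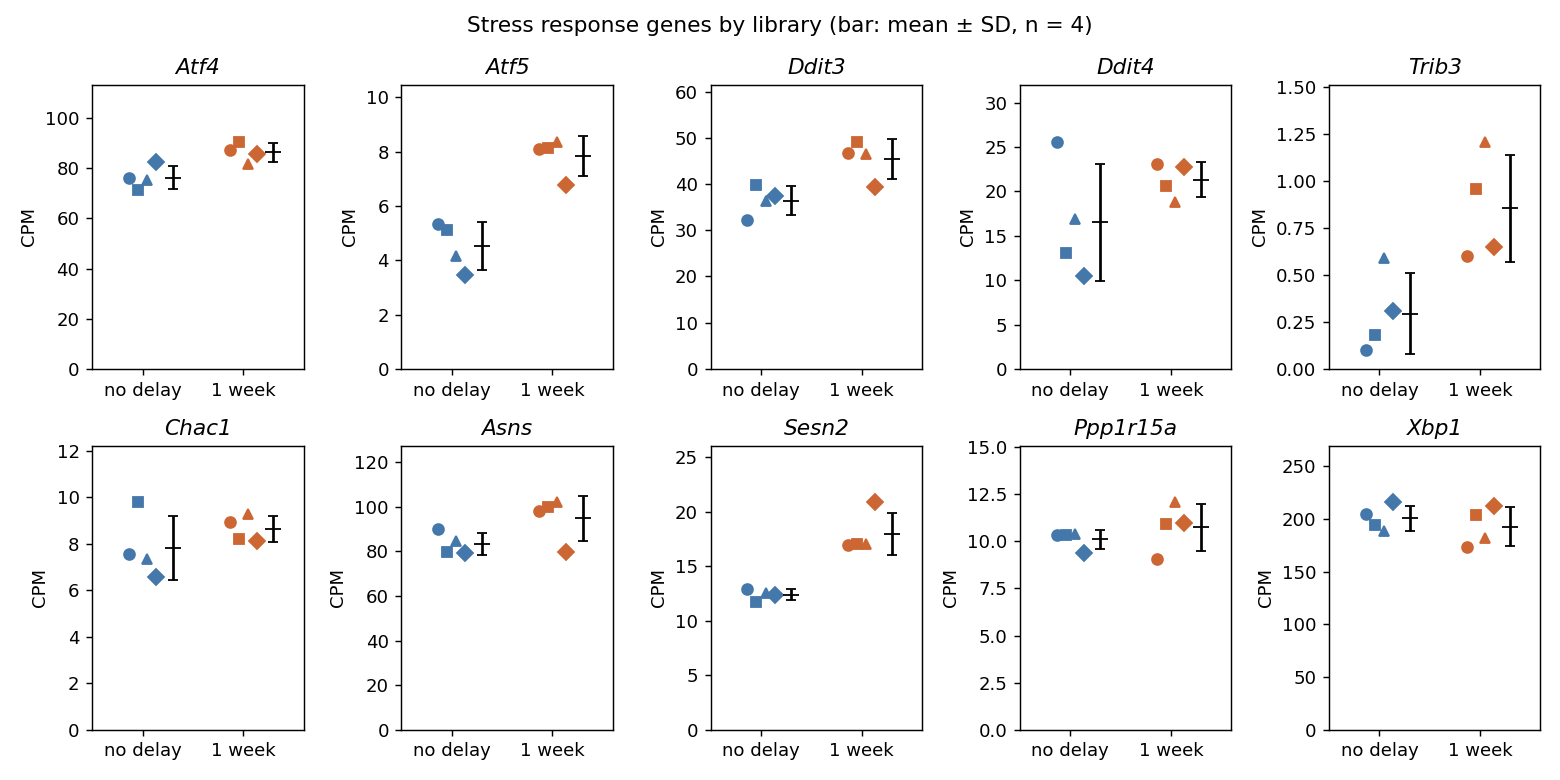
Level of each of the 10 genes in CPM (vertical axis, from 0) in the 4 no-delay libraries (blue) and the 4 1-week libraries (orange), with a bar for the mean ± SD (n = 4). Circles are library acagtg, squares atcacg, triangles cgatgt and diamonds tgacca. The groups stand apart for Atf5, Sesn2 and Trib3 and overlap for the other 7 genes, and a single no-delay library of Ddit4, at 25.6 CPM, lies above all 4 1-week libraries.

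Atf4 encodes the bZIP transcription factor at the centre of the integrated stress response. Its level was 76.0, 71.1, 75.1 and 82.4 CPM without delay and 87.3, 90.5, 81.7 and 85.5 CPM at 1 week. The highest no-delay library, tgacca, lay above the lowest 1-week library, so the groups overlapped. The means were 76.2 ± 4.67 and 86.3 ± 3.67 CPM (SD, n = 4 each), a ratio of 1.13. The log2 fold change of 0.18 (SE 0.07, 95% interval 0.04 to 0.32) missed the threshold in limma with an adjusted p of 0.0504. The threshold was passed without the no-delay library tgacca (adjusted p = 0.0265 in limma) and after quantile normalization (adjusted p = 0.0456 in limma). With TMM or median-of-ratios scaling the log2 fold change was 0.12 or 0.11 (adjusted p = 0.204 and 0.239 in limma), with edgeR 0.12 (adjusted p = 0.207) and with DESeq2 0.11 (adjusted p = 0.299). An exact 2-sided permutation test of the CPM means gave p = 0.0571, where the smallest p that 70 arrangements of 4 against 4 can give is 0.0286.

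Atf5 encodes a relative of ATF4 whose mRNA is translated under the same control and whose protein is known for the response to mitochondrial protein stress. Its level was 5.33, 5.12, 4.16 and 3.44 CPM without delay and 8.09, 8.13, 8.36 and 6.76 CPM at 1 week. All 4 1-week libraries lay above all 4 no-delay libraries. The means were 4.51 ± 0.878 and 7.84 ± 0.726 CPM (SD, n = 4 each), a ratio of 1.74. On the log2 scale the change was 0.69 (SE 0.14, 95% interval 0.39 to 0.99) with an adjusted p of 0.0021 in limma, and the exact permutation test gave p = 0.0286, the smallest possible. After quantile normalization the log2 fold change was 0.35, and limma did not call it (adjusted p = 0.0596). On the opposite strand Atf5 overlaps Nup62 and Il4i1, and how the authors' counting used strand is not given in the sources used here. Nup62 had 19.3 ± 3.45 and 22.1 ± 1.06 CPM (SD, n = 4 each) and Il4i1 19.1 ± 3.44 and 22.1 ± 1.13 CPM, and limma called neither (adjusted p = 0.188 and 0.163).

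Ddit3 encodes CHOP, a bZIP factor induced through ATF4 that is known for the death-promoting side of endoplasmic reticulum (ER) stress. Its level was 32.3, 39.8, 36.2 and 37.3 CPM without delay and 46.8, 49.1, 46.4 and 39.3 CPM at 1 week. The 1-week library tgacca lay below the no-delay library atcacg, and the other 3 1-week libraries lay above all no-delay libraries. The means were 36.4 ± 3.13 and 45.4 ± 4.23 CPM (SD, n = 4 each), a ratio of 1.25. The log2 fold change was 0.31 (SE 0.09, 95% interval 0.12 to 0.50) with an adjusted p of 0.0163 in limma, and the exact permutation test gave p = 0.0571. The call was lost with median-of-ratios scaling (adjusted p = 0.0533 in limma), with DESeq2 (adjusted p = 0.0526) and without the 1-week library atcacg (adjusted p = 0.0539 in limma). Mars, a methionyl-tRNA synthetase gene on the opposite strand of Ddit3, was at 61.3 ± 1.24 and 62.4 ± 2.07 CPM (SD, n = 4 each) and was not called by limma (adjusted p = 0.777).

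The 250 bases upstream of the start of Atf5 and of Ddit3 are shown because these are the regulators whose start-site reads passed the test. They come from RefSeq promoter windows on GRCm38.p6, a later build than that of the deposited values, and are written 5′ to 3′ along the gene's own strand. RefSeq has 2 starts for Atf5, and the table does not tell their reads apart.
Atf5 (chr7:44816659-44816908, minus strand): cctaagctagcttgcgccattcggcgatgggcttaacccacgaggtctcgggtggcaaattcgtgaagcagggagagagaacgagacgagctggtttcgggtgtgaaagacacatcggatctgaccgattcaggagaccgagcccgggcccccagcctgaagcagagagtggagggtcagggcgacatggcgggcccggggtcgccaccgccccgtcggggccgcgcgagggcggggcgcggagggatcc
Atf5, second start (chr7:44815659-44815908, minus strand): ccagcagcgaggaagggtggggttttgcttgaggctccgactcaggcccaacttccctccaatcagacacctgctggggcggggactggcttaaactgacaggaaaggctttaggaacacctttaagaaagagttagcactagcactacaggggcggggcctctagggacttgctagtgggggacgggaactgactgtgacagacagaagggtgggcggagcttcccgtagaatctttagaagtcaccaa
Ddit3 (chr10:127290543-127290792, plus strand): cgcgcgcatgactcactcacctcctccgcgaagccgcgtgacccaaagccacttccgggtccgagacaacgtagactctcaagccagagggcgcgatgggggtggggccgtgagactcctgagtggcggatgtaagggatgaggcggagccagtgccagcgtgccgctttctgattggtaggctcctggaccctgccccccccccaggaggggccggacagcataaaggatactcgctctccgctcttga
None of 4 motifs searched on both strands was found in these windows, which run from 250 bases before to 50 bases after the start. The motifs were the ATF4 composite element (TGATGNAA), the ER stress element bound by ATF6 and NF-Y, a UPR element (TGACGTGG) and the cAMP response element (TGACGTCA). The same windows of 32851 promoters held them in 3.97%, 0.119%, 0.676% and 1.79% of cases. The absence of a match says only that these letters are not in the window.

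Asns encodes asparagine synthetase, a classic ATF4 target. Its level was 90.0, 79.6, 84.8 and 79.2 CPM without delay and 98.1, 99.8, 102 and 79.8 CPM at 1 week. Of the 1-week libraries 3 lay above all no-delay libraries, while tgacca lay among them. The means were 83.4 ± 5.08 and 94.9 ± 10.2 CPM (SD, n = 4 each), a ratio of 1.14. The log2 fold change of 0.18 (SE 0.08, 95% interval -0.00 to 0.36) was not called by limma (adjusted p = 0.112), and the exact permutation test gave p = 0.0857. Without the 1-week library tgacca the adjusted p in limma was 0.010 and the log2 fold change 0.26. With TMM or median-of-ratios scaling the log2 fold change was 0.12 or 0.11 (adjusted p = 0.251 and 0.292 in limma), and DESeq2 gave 0.12 (adjusted p = 0.318).

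Chac1 encodes an enzyme that breaks down glutathione and is induced by ATF4 and CHOP. Its level was 7.58, 9.78, 7.33 and 6.56 CPM without delay and 8.94, 8.20, 9.29 and 8.14 CPM at 1 week. The highest of all 8 values was a no-delay library, atcacg. The means were 7.81 ± 1.38 and 8.64 ± 0.565 CPM (SD, n = 4 each), and the log2 fold change was 0.14 (SE 0.13, 95% interval -0.13 to 0.41), which limma did not call (adjusted p = 0.412). The exact permutation test gave p = 0.314.

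Trib3 encodes a pseudokinase that is induced by ATF4 and CHOP and binds both ATF4 and the kinase AKT. Its level was 0.10, 0.18, 0.59 and 0.31 CPM without delay and 0.60, 0.96, 1.21 and 0.65 CPM at 1 week. In reads these values were 1, 2, 6 and 3 against 5, 13, 17 and 8. The groups did not overlap, but the highest no-delay library, cgatgt at 0.59 CPM, lay next to the lowest 1-week library, acagtg at 0.60 CPM. With TMM scaling these libraries changed order, so that the groups overlapped. Pooled over libraries, 12 reads stood against 43, a ratio of 3.01 per read sequenced (95% interval 1.56 to 6.27, which covers counting error alone and treats each tag as an independent molecule). The exact permutation test of the CPM means, 0.295 ± 0.215 and 0.855 ± 0.285 (SD, n = 4 each), gave p = 0.0286, the smallest possible. Trib3 lay below the filter on low values. With no filter, limma over all 17644 genes gave a log2 fold change of 0.52 (SE 0.14, 95% interval 0.21 to 0.83) and an adjusted p of 0.0162, and 20.5% of all genes were called higher in that fit.

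The ATF4 composite element, TGATGNAA, was found in the windows of these 3 target genes, Asns, Chac1 and Trib3, and in none of the other 7 genes, beside 3.97% of all 32851 promoters. Its letters are in capitals in the following RefSeq sequences (GRCm38.p6). In Asns it begins 23 bases upstream of the start on the gene's strand. In Chac1, where it begins 193 bases upstream, and in Trib3, where it begins 14 bases after the start, it is read on the opposite strand, so the capitals show its reverse complement.
Asns (chr6:7693210-7693459, minus strand): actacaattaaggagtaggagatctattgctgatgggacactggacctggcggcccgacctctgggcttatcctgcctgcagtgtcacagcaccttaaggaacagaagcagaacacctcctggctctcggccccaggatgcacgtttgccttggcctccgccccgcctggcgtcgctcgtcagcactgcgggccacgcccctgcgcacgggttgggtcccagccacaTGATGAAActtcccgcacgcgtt
Chac1 (chr2:119350992-119351241, plus strand): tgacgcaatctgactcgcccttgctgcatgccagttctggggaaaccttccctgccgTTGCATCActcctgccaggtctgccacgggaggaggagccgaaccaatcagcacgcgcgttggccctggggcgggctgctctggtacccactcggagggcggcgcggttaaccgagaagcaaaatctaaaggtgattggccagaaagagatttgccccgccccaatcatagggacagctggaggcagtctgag
Trib3, the 30 bases around the match (chr2:152344028-152344057, minus strand): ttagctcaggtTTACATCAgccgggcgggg
Of the 3 genes with the element, Asns and Chac1 were tested after the filter and not called by limma. Trib3 was not in that test and so could not be called there. With no filter limma called Trib3 higher (adjusted p = 0.0162), beside 20.5% of all genes in that fit. The 3 genes called after the filter have no match to the element in their windows. A match of letters is a description and does not show binding.

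Sesn2 encodes Sestrin 2, a leucine sensor that holds back the growth kinase complex mTORC1 and is induced through ATF4 and p53. Its level was 12.9, 11.7, 12.6 and 12.4 CPM without delay and 16.9, 17.0, 17.1 and 20.9 CPM at 1 week. All 1-week libraries lay above all no-delay libraries, and at 1 week tgacca stood above the other 3. The means were 12.4 ± 0.510 and 18.0 ± 1.93 CPM (SD, n = 4 each), a ratio of 1.45. Limma gave a log2 fold change of 0.50 (SE 0.10, 95% interval 0.28 to 0.71) with an adjusted p of 0.0018, and the exact permutation test gave p = 0.0286, the smallest possible. Sesn2 was called in all 20 alternative analyses, with log2 fold changes from 0.30 to 0.52. The table gives the gene model Gm12981 the same reads as Sesn2 in every library, and the annotation places it over Sesn2 on the same strand, so reads cannot be assigned to 1 of the pair. The upstream sequence of Sesn2 is shown as that of the call that held in every analysis, and none of the 4 motifs was found in its window.
Sesn2 (chr4:132510457-132510706, minus strand): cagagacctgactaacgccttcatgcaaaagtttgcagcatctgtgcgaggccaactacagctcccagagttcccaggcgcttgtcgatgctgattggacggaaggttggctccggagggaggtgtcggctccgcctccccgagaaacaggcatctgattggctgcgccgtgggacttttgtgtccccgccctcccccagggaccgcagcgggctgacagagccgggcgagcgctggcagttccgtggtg

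Ddit4 encodes REDD1, which restrains mTORC1 through the TSC complex and is induced by ATF4, hypoxia and glucocorticoids. Its level was 25.6, 13.1, 16.9 and 10.5 CPM without delay and 23.1, 20.6, 18.9 and 22.7 CPM at 1 week. The no-delay library acagtg had the highest of all 8 values, and the other 3 no-delay libraries lay below all 1-week libraries. The means were 16.5 ± 6.60 and 21.3 ± 1.96 CPM (SD, n = 4 each). The log2 fold change of 0.42 (SE 0.20, 95% interval -0.02 to 0.86) was not called by limma (adjusted p = 0.129), and the exact permutation test gave p = 0.229. Without the no-delay library acagtg the no-delay mean was 13.5 ± 3.23 CPM (SD, n = 3), the log2 fold change 0.64 (SE 0.15) and the adjusted p in limma 0.0060. Without the no-delay library tgacca, the lowest of all 8, the log2 fold change was 0.24 and the adjusted p in limma 0.337.

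Because Ddit4 is also a glucocorticoid-induced gene, its library pattern was set beside 11 other genes that glucocorticoids induce. The no-delay library acagtg was the highest of its group in 9 of these 11, as it was for Ddit4, beside 31.5% of all 14718 genes tested. Sgk1, a kinase gene, was at 180 CPM in that library and at 61.6 to 86.5 CPM in the other 3. Tsc22d3, which encodes the anti-inflammatory protein GILZ, was at 102 CPM against 60.7 to 66.3 CPM, and Plin4, a lipid droplet gene, at 9.12 CPM against 0.21 to 1.88 CPM. In the 1-week group the library highest for Ddit4, also tagged acagtg, was highest in 7 of the 11, beside 22% of all genes tested. That library has the fewest reads of the 8 (8278855) and the highest hemoglobin share of reads (0.530%, beside 0.0344% to 0.241% in the other 1-week libraries), and the part of either in these values was not tested. The no-delay library acagtg had the highest hemoglobin share of its group (0.154%, beside 0.0652% to 0.114%). Its mitochondrial share was the lowest of that group (3.0%, beside 4.03% to 5.38%), and the part of these was not tested either. Between the groups 3 of the 11 were called higher (Pdk4, Mt1 and Mt2), beside 23.4% of all genes tested. The 3 called lower were Fkbp5, Per1 and Zbtb16, beside 13.4% of all genes tested, and the list's median log2 fold change was -0.16. Pdk4 went from 4.72 ± 3.25 to 11.5 ± 1.38 CPM and Mt2, a metallothionein, from 305 ± 41.4 to 726 ± 159 CPM (SD, n = 4 each), while Fkbp5 fell from 24.0 ± 3.51 to 15.8 ± 3.05 CPM. Zbtb16, a transcription factor gene, fell from 23.6 ± 4.38 to 13.7 ± 3.02 CPM. The part of glucocorticoids in the Ddit4 values was not tested.

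**Figure D2:**
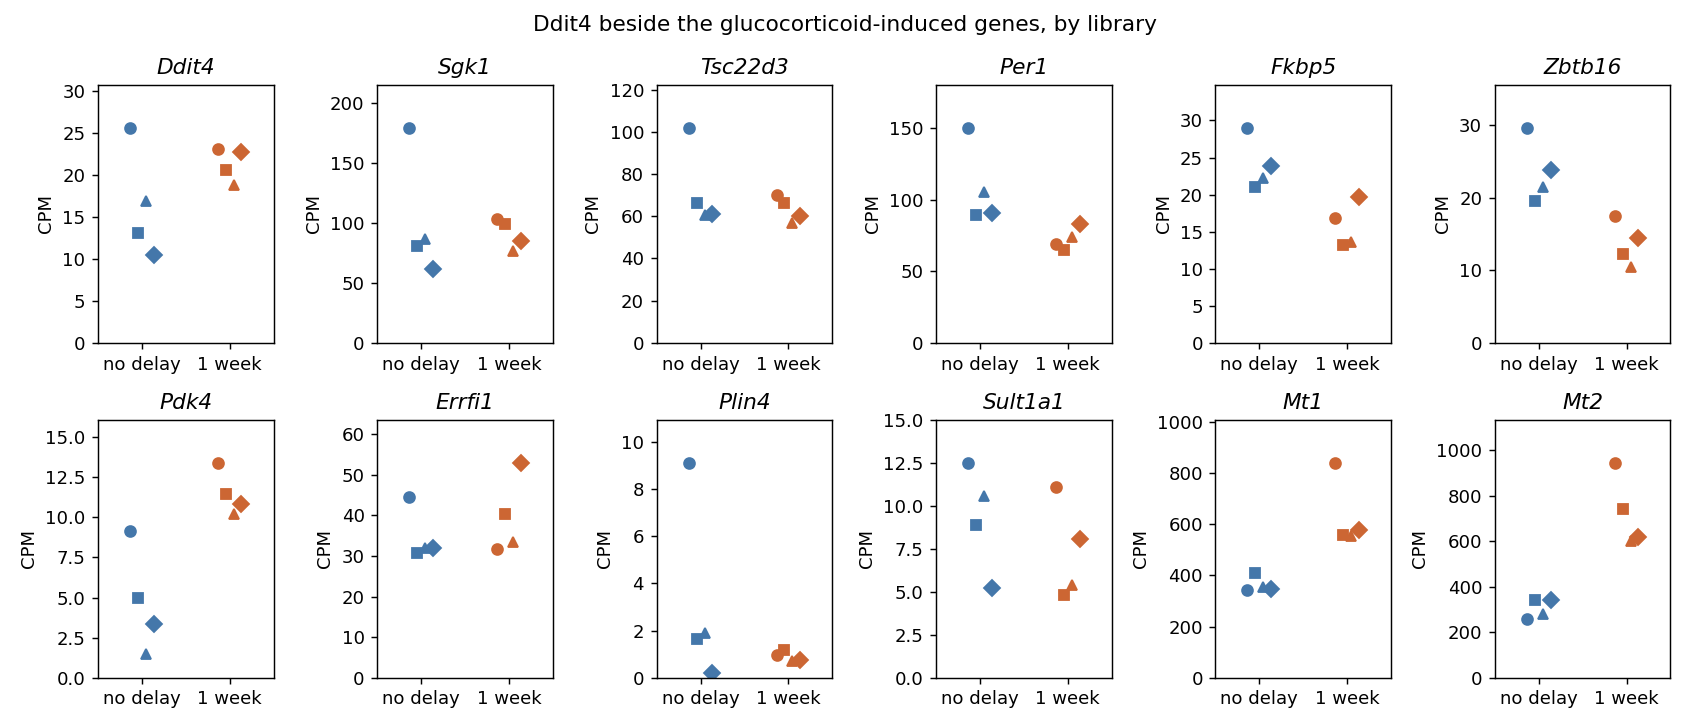
Level in CPM (vertical axis, from 0) of Ddit4 and 11 glucocorticoid-induced genes in the no-delay (blue) and 1-week (orange) libraries, 1 point per library, with circles for acagtg, squares for atcacg, triangles for cgatgt and diamonds for tgacca. The no-delay circle is the highest no-delay point for Ddit4 and for 9 of the 11 other genes, Mt1 and Mt2 being the exceptions.

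Ppp1r15a encodes GADD34, which directs a phosphatase to eIF2 and so ends the response. Its level was 10.4, 10.3, 10.4 and 9.38 CPM without delay and 9.06, 10.9, 12.1 and 11.0 CPM at 1 week. The lowest of all 8 values was a 1-week library, acagtg, and the groups overlapped. The means were 10.1 ± 0.491 and 10.8 ± 1.25 CPM (SD, n = 4 each). A log2 fold change of 0.08 (SE 0.11, 95% interval -0.16 to 0.31) was not called by limma (adjusted p = 0.612), and the exact permutation test gave p = 0.343. Its RefSeq window on GRCm38.p6 is the only one of the 10 genes with a cAMP response element (capitals, reading the same on both strands), which begins 12 bases upstream of the start.
Ppp1r15a (chr7:45526269-45526518, minus strand): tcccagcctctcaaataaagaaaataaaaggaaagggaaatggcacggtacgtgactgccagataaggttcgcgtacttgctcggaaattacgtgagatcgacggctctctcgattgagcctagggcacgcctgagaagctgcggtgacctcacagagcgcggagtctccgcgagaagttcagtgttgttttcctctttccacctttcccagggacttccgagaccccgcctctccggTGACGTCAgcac

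Xbp1 encodes the transcription factor of the IRE1 branch, which drives genes of protein folding and secretion. Its level was 204, 195, 189 and 216 CPM without delay and 173, 204, 182 and 212 CPM at 1 week. The groups overlapped widely, with the highest value in a no-delay library and the lowest in a 1-week library. The means were 200.8 ± 11.8 and 192.8 ± 18.2 CPM (SD, n = 4 each), a ratio of 0.960. A log2 fold change of -0.06 (SE 0.08, 95% interval -0.23 to 0.10) was not called by limma (adjusted p = 0.560), and the exact permutation test gave p = 0.486. Xbp1 was the only 1 of the 10 genes with a lower mean at 1 week.

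**Figure D3:**
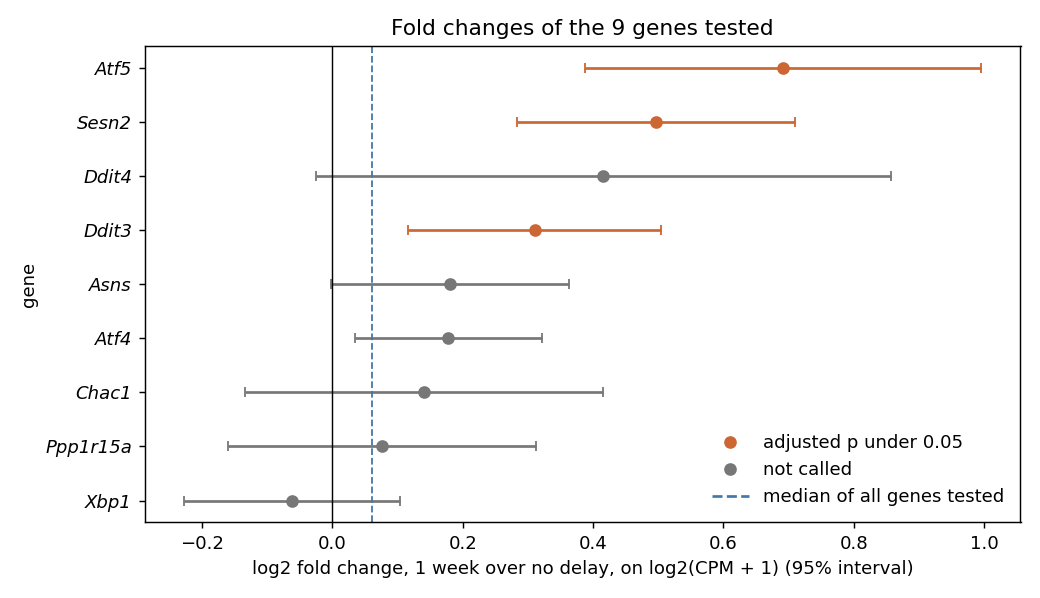
Log2 fold change of the 9 tested genes, 1 week over no delay, on log2(CPM + 1) (horizontal axis), with 95% intervals from limma. Orange marks the 3 called genes, grey the 6 others, and the dashed line the median of all genes tested at 0.06. The intervals of Atf5, Sesn2, Ddit3 and Atf4 lie above 0, that of Atf4 beginning at 0.04, and those of the other 5 include 0.

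Upstream of ATF4, the list of 16 genes for eIF2 kinases and eIF2 control held 1 gene called higher and 1 called lower. It covers the kinases, eIF2, its exchange factor and also Ppp1r15b, Impact, Dnajc3 and Eif2a. Of all genes tested, 23.4% were called higher and 13.4% lower. The list's median log2 fold change was 0.04. Eif2ak2, the kinase PKR that senses double-stranded RNA and is induced by interferon, rose from 7.04 ± 0.811 to 27.5 ± 5.23 CPM (SD, n = 4 each). Its log2 fold change was 1.81 with an adjusted p of 7.4e-07 in limma. The genes for the other kinases, Eif2ak1 (HRI), Eif2ak3 (PERK) and Eif2ak4 (GCN2), were not called, and Eif2ak3 was at 19.6 ± 1.46 and 18.1 ± 2.78 CPM (adjusted p = 0.468 in limma). Eif2b5, the catalytic subunit of the exchange factor eIF2B, fell from 46.6 ± 2.76 to 39.0 ± 2.96 CPM with an adjusted p of 0.0233 in limma. The Eif2b5 call did not hold without the no-delay library acagtg, the 1-week library acagtg or the 1-week library atcacg (adjusted p in limma from 0.0629 to 0.0671). Without the 1-week library acagtg, 2 genes of the list were called higher, beside 21.5% of all genes tested.

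The list of bZIP genes whose products can pair with ATF4, CHOP or their relatives had 10 tested genes. Atf3, a stress-induced repressor, was at 0.375 ± 0.181 CPM without delay and at 6.08 ± 1.28 CPM at 1 week, and Batf3, a factor of immune cells, at 0.730 ± 0.249 and 1.89 ± 0.584 CPM (SD, n = 4 each). Both were below 1 CPM in all no-delay libraries and passed the filter only through their 1-week values, so they are given as levels and left out of the count. Of the other 8 genes 4 were called higher and 2 lower, beside 23.4% and 13.4% of all genes tested. The median log2 fold change of the 8 was 0.23, against 0.06 over all genes tested. Cebpd, a factor of glial inflammation, rose from 8.07 ± 2.63 to 29.6 ± 4.65 CPM (SD, n = 4 each), and Nfe2l2, which encodes the oxidative stress factor NRF2, from 13.9 ± 1.46 to 41.8 ± 5.0 CPM. Jdp2 fell from 42.9 ± 3.37 to 30.3 ± 3.62 CPM and Nfe2l1 from 271 ± 21.8 to 192 ± 20.1 CPM. Cebpb and Cebpg were not called.

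ATF4 targets for amino acid synthesis and uptake were called higher in 10 of 18 genes and lower in 0. The list's median log2 fold change was 0.44, and of all genes tested 23.4% were called higher and 13.4% lower. Asns itself was not called. Slc7a11, the cystine transporter that feeds glutathione synthesis, rose from 24.9 ± 3.42 to 74.0 ± 13.6 CPM (SD, n = 4 each), a log2 fold change of 1.53 with an adjusted p of 1.7e-06 in limma. Phgdh and Psat1, the first enzymes of serine synthesis, rose too, Phgdh from 24.4 ± 5.51 to 49.4 ± 9.41 CPM and Psat1 from 75.2 ± 8.60 to 127 ± 3.97 CPM. Phgdh is known as an enzyme rich in astrocytes, whose summed markers lay at 2274 to 2600 CPM without delay and at 4599 to 5242 CPM at 1 week, and their part in these values was not tested. Slc7a11 has the composite element in its window, as do Pycr1 and Got1, 3 of the 15 genes with a RefSeq promoter.

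Of 12 tested aminoacyl-tRNA synthetase genes, which charge tRNAs with amino acids and are ATF4 targets too, 2 were called higher and 0 lower. Beside this, 23.4% of all genes tested were called higher and 13.4% lower. The list's median log2 fold change was 0.10. Eprs rose from 69.8 ± 2.49 to 88.2 ± 4.14 CPM (SD, n = 4 each), with an adjusted p of 0.0012 in limma. Tars was at 33.0 ± 3.94 and 41.0 ± 3.86 CPM with an adjusted p of 0.0299 in limma, and the call was lost in 10 of the 20 alternatives. Leaving out the no-delay library atcacg or cgatgt, or the 1-week library acagtg or atcacg, gave Tars an adjusted p in limma from 0.0501 to 0.0928. The composite element was in the windows of 5 of the 7 synthetase genes with a RefSeq promoter (Aars, Gars, Iars, Tars and Yars), and 1 of these 5, Tars, was among the called genes.

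The list of other ATF4 and CHOP targets had 14 genes in the table, of which 11 were tested. Tnfrsf10b, a death receptor gene, was at 0.323 ± 0.174 and 2.92 ± 0.744 CPM (SD, n = 4 each), passed the filter only through its 1-week values and is not counted. Of the other 10 genes 2 were called higher and 2 lower, beside 23.4% and 13.4% of all genes tested. The 10 had a median log2 fold change of 0.13. Nupr1, a small stress-induced chromatin protein, rose from 8.79 ± 3.31 to 24.7 ± 6.78 CPM, and Eif4ebp1, a brake on translation initiation, from 11.0 ± 0.658 to 18.4 ± 1.21 CPM. Vegfa fell from 106 ± 11.7 to 82.7 ± 10.6 CPM and Ero1l, an oxidase of the ER, from 39.6 ± 2.28 to 30.3 ± 1.89 CPM.

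The sensors and transcription factors of the ER response were called higher in 3 of 11 tested genes and lower in 0. All genes tested were called higher in 23.4% and lower in 13.4% of cases, and the list's median log2 fold change was 0.15. Creb3l2, a membrane-bound factor of the secretory pathway, rose from 6.81 ± 1.44 to 13.7 ± 3.07 CPM (SD, n = 4 each), with an adjusted p of 0.0013 in limma. Nfya, a subunit of the CCAAT-binding factor NF-Y, went from 14.2 ± 2.94 to 19.3 ± 1.28 CPM. D10Wsu52e, the older symbol of the ligase gene Rtcb that joins Xbp1 mRNA after cutting, went from 80.3 ± 1.96 to 89.9 ± 2.76 CPM. The sensor genes Ern1 (IRE1) and Atf6 were not called, as Xbp1 was not. Without the no-delay or without the 1-week library atcacg, 1 gene of the list remained called. In limma Nfya then had an adjusted p of 0.0523 to 0.0630. D10Wsu52e missed the threshold in limma when any 1 of 6 libraries was left out (adjusted p from 0.0675 to 0.122). The exceptions were the no-delay library acagtg and the 1-week library tgacca. Over the 20 alternatives, these omissions among them, the call was lost in 12 for D10Wsu52e and in 3 for Nfya.

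ER chaperones and folding enzymes were called higher in 5 of 18 genes and lower in 2, beside 23.4% and 13.4% of all genes tested. The list had a median log2 fold change of 0.11. Hspa5, the chaperone BiP that is the standard readout of ER stress, was at 184 ± 30.6 and 203 ± 34.3 CPM (SD, n = 4 each) and was not called by limma (adjusted p = 0.392). Ppib, a prolyl isomerase of collagen folding, rose from 117 ± 3.79 to 176 ± 9.91 CPM with an adjusted p of 1.3e-05 in limma, and Pdia4, a disulfide isomerase, from 104 ± 10.5 to 145 ± 16.9 CPM. Txndc11 fell from 46.9 ± 4.85 to 34.1 ± 6.85 CPM. Of the 2 lower calls, 1 remained without the no-delay library tgacca, the 1-week library acagtg or the 1-week library cgatgt. In these fits 11.1% to 12.3% of all genes tested were called lower. The ER stress element was in the windows of 6 of 15 chaperone genes (Hspa5, Hsp90b1, Calr, Canx, Pdia6 and Creld2), beside 0.119% of all promoters, and 1 of these 6, Calr, was called higher.

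Genes of ER-associated degradation and of translocation into the ER were called higher in 10 of 17 and lower in 0. Beside this, 23.4% of all genes tested were called higher and 13.4% lower. The list's median log2 fold change was 0.24. Edem1, which hands misfolded glycoproteins to degradation, rose from 10.4 ± 0.334 to 16.4 ± 1.42 CPM (SD, n = 4 each). Sec61a1, the channel subunit, rose from 38.6 ± 2.25 to 59.3 ± 3.03 CPM and Ssr3, a part of the translocon, from 103 ± 6.33 to 154 ± 8.73 CPM. Herpud1, a target of ATF4, ATF6 and XBP1, was at 61.5 ± 1.05 and 61.4 ± 3.73 CPM and was not called. The count of 10 was 6 with TMM or median-of-ratios scaling, with edgeR, DESeq2 or limma-voom, and without the no-delay library atcacg, the 1-week library atcacg or the 1-week library cgatgt. For the mitochondrial stress response, tied to Atf5, the median log2 fold change was 0.10. Beside the same shares of all genes tested, 2 of 9 genes were called higher and 0 lower. They were Oma1, the protease that relays mitochondrial stress to eIF2 (13.1 ± 1.92 to 17.6 ± 1.25 CPM), and Lonp1, a matrix protease (54.5 ± 2.96 to 67.0 ± 3.44 CPM).

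**Figure D4:**
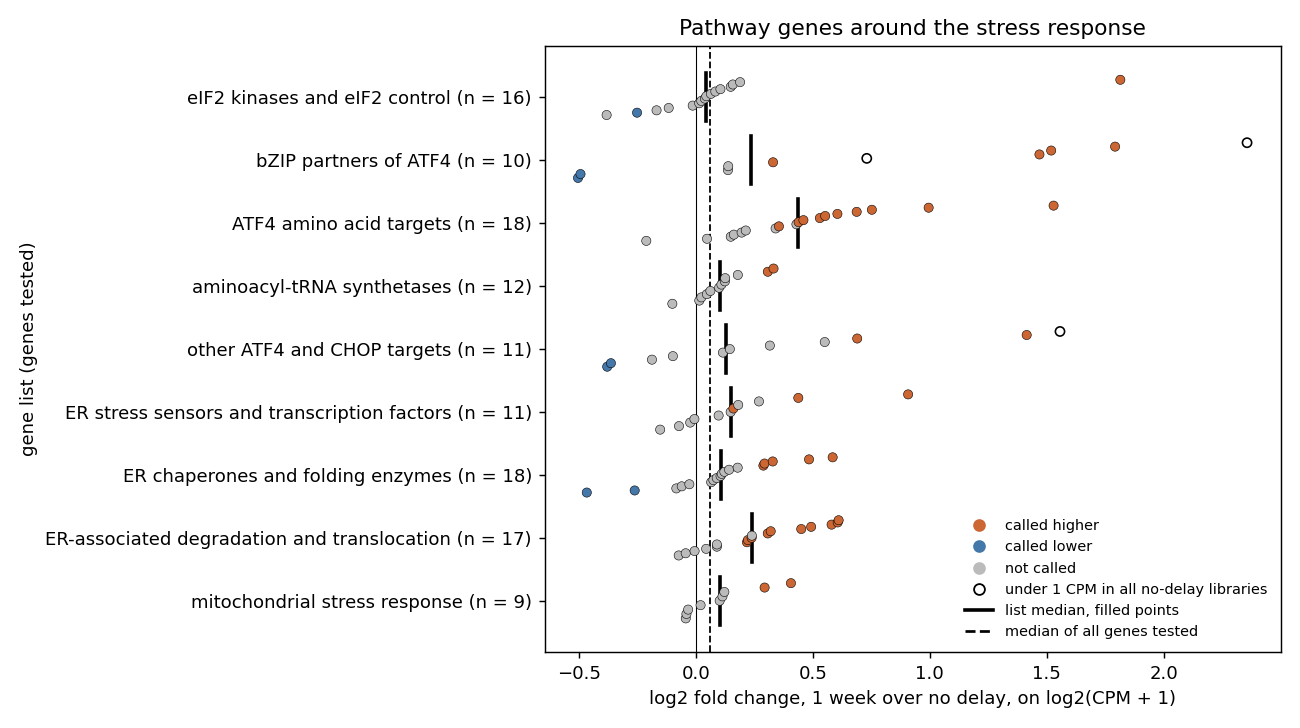
Log2 fold change, 1 week over no delay on log2(CPM + 1) (horizontal axis), of each tested gene of 9 pathway lists (vertical axis), 1 point per gene, orange for genes called higher, blue for lower and grey for not called. Open points are Atf3, Batf3 and Tnfrsf10b, under 1 CPM in all no-delay libraries, thick lines are list medians without them, and the dashed line is the median of all genes tested at 0.06. The bZIP and amino acid lists have medians of 0.23 and 0.44, and the eIF2 list has a single gene, Eif2ak2, far to the right.

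The paralogues of the 10 genes were, without Atf3, called higher in 2 of 7 (Ddit4l and Sesn3) and lower in 0. Over all genes tested 23.4% were called higher and 13.4% lower. The median log2 fold change of the 7 was 0.11. Ddit4l, the REDD2 gene, went from 38.2 ± 6.96 to 49.0 ± 2.66 CPM, and Sesn3 from 156.5 ± 7.72 to 185.6 ± 13.5 CPM (SD, n = 4 each). Ddit4l was no longer called without the no-delay library acagtg, nor without any 1-week library other than cgatgt (adjusted p in limma from 0.0501 to 0.0555), and the Sesn3 call with each scaling or count model other than quantile normalization (adjusted p from 0.0628 to 0.0727 in limma, edgeR, DESeq2 and limma-voom). Chac2, Trib1, Trib2, Sesn1 and Ppp1r15b were not called. The mTORC1 arm on which Ddit4 and Sesn2 act had a median log2 fold change of 0.02. In it 2 of 13 genes were called higher and 0 lower, beside 23.4% and 13.4% of all genes tested. Gatsl3, the older symbol of the arginine sensor gene Castor1, rose from 1.49 ± 0.0377 to 4.06 ± 0.998 CPM (adjusted p = 0.0005 in limma). Depdc5, a subunit of the GATOR1 complex, went from 85.2 ± 7.11 to 100.4 ± 6.05 CPM. Its call was lost in 10 of the 20 alternatives, 4 of them omissions of a library. These were no-delay cgatgt, no-delay tgacca, 1-week atcacg and 1-week cgatgt (adjusted p in limma from 0.0596 to 0.0791).

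Other inducers of these genes were also listed. Of the p53 targets, Eda2r was at 0.0475 ± 0.0550 and 2.51 ± 0.267 CPM (SD, n = 4 each), passing the filter only through its 1-week values. Of the other 9 tested, 4 were called higher and 0 lower, beside 23.4% and 13.4% of all genes tested. The 9 had a median log2 fold change of 0.32. Trp53inp1 rose from 8.30 ± 1.16 to 15.6 ± 1.5 CPM (SD, n = 4 each) and Ccng1 from 104 ± 3.11 to 161 ± 11.9 CPM. Cdkn1a and Mdm2, the best known p53 targets, were not called. Of 12 tested hypoxia-induced genes 5 were called higher and 3 lower, beside the same shares of all genes tested. The list's median log2 fold change was 0.04. Hk2 rose from 1.58 ± 0.277 to 12.2 ± 4.04 CPM, Pfkfb3 from 13.9 ± 2.73 to 26.5 ± 5.40 CPM and Adm from 2.47 ± 0.735 to 4.35 ± 0.607 CPM, while Bnip3, Egln1 and Vegfa were lower. The part of these inducers in the levels of Sesn2 and Ddit4 was not tested.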

How the data were processed

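The authors' deposited table gives CPM values for 17644 gene symbols in 8 libraries. The submitters' processing notes name BWA 0.5.9 and mm9. How tags were assigned to genes, and whether by strand, is not given in the sources used here. Deposited CPM values are whole multiples of 1 read, so reads were recovered (100% of values whole within 0.1 reads). A floor of 3 reads corresponds to 0.214 to 0.362 CPM. The genes, lists and tests were chosen with earlier results of these data known. Log2(CPM + 1) was fitted with limma 3.58.1 in R 4.3.3, using a variance trend, on a scale that understates changes of low genes, for 14718 genes with at least 1 CPM in at least 4 libraries. It was 2-sided and Benjamini-Hochberg adjusted, with a threshold of 0.05. Named genes were the 10 members and, per list, up to 3 called genes of the largest absolute fold change (or, with none called, the gene of highest mean CPM); others named were chosen after their values were seen. Of 260 list entries 254 matched a symbol, 2 by an older symbol. Alternatives were other pseudocounts, filters, scalings, library weights, no variance trend, edgeR 4.0.16, DESeq2 1.42.0 and limma-voom on recovered reads, leaving out each library and, added after the data were seen, equal column tags as a block. The fits were also run on simulated reads with few changed genes, as many up as down, to check the code. In these data 36.8% of genes tested were called, so that run does not measure error rates here. Among genes with at least 5 reads in every library, 190 share all their reads with another gene. Promoters are RefSeq windows on GRCm38.p6. No column was left out.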

Additional observations from a re-analysis of the deposited data

Results flagged for a closer look

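Each of 47 genes was examined in both groups for a library set apart from the other 3, by a gap to the nearest library above Dixon's 95% critical value, and 8 of 94 gene groups had one. Chance alone flags about 1 group in 20. Among the stress response genes there were 3. The 1-week library tgacca was lowest for Atf5, at 6.76 CPM beside 8.09 to 8.36 CPM, and highest for Sesn2, at 20.85 CPM beside 16.91 to 17.07 CPM. The no-delay library tgacca was lowest for Ppp1r15a, at 9.38 CPM beside 10.33 to 10.40 CPM. Among the other genes, Eif2b5 was highest in the no-delay library acagtg, at 50.71 CPM beside 44.91 to 45.45 CPM. Edem1 was highest in the 1-week library cgatgt, at 18.50 CPM beside 15.47 to 15.82 CPM, and Oma1 in the 1-week library atcacg, at 19.51 CPM beside 16.93 to 17.10 CPM. Mt1, a metallothionein gene, was set apart in both groups, at 411.21 CPM in the no-delay library atcacg beside 344.74 to 355.02 CPM, and at 841.66 CPM in the 1-week library acagtg beside 555.04 to 579.10 CPM.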

How the results depend on the processing

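In 20 alternatives (12 settings and 8 omissions of a library), Sesn2 was called in all 20, Atf5 in all except quantile normalization and Ddit3 in all except 3. The members called higher, 3 as reported, were 5 with no filter on low values, where Atf4 and Trib3 were added. In that fit 20.5% of all genes were called higher. With library weights 5 members were called higher, Atf4 and Asns being added, beside 25.8% of all genes tested. Over the omissions the members called higher ranged from 2 to 4, beside 19.3% to 23.4% of all genes tested. In every alternative 0 members were called lower. Members with groups that did not overlap, 3 as reported, were 3 to 5 over the omissions. Leaving out a library can only keep or raise this count, so the range could not go below 3. The share of all genes was not computed for the omissions. With TMM scaling the members without overlap were 2, Trib3 no longer being among them. The share of all genes without overlap was not computed under that scaling. After quantile normalization the log2 fold changes of Chac1 (-0.17, adjusted p = 0.292 in limma) and Ppp1r15a (-0.19, adjusted p = 0.164 in limma) were below 0. Genes called lower among all genes tested then numbered 3211 instead of 1971, and Oma1 and Adm lost their calls. The cause was not tested, beyond the shift of all genes by -0.10 under that scaling. The share of calls that were higher was 50.3% with DESeq2, 51.4% under median-of-ratios scaling and 53.2% under TMM scaling. Over the lists together, 47 to 63 genes were called higher (59 in the reported fit) and 10 to 15 lower (12 in the reported fit). The 59 include Atf3, Batf3, Tnfrsf10b and Eda2r. These were left out of the counts of the single lists, since the filter on low values allowed them no other direction. In the same alternatives 16.7% to 25.8% of all genes tested were called higher and 9.71% to 21.8% lower. The share of list genes called was not computed, so the list counts cannot be read against these shares. Of 915 comparisons of 46 named genes with their reported value, 853 kept direction and side of the threshold, 53 lost a call, 7 gained one and 2 changed sign.

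A fit with equal column tags as a replicate block, chosen after seeing the data, called 3 members higher and 0 lower. Of the 14718 genes tested, it called 3484 (23.7%) higher and 1986 (13.5%) lower. Over the lists together 58 genes were called higher and 12 lower, with Atf3, Batf3, Tnfrsf10b and Eda2r again kept in the lists. Of the 46 named genes D10Wsu52e lost its call (adjusted p = 0.0558 in limma). In the eIF2 list of 16 genes 2 were called higher and 2 lower, beside the same shares of all genes tested. Over 14718 genes the deviations of libraries with equal tags from their group means correlated at -0.02, -0.03, 0.04 and 0.18 (acagtg, then atcacg, then cgatgt, then tgacca), and 3 of the 8 libraries correlated best with the library of their own tag. Depth limits Trib3, with 1 to 17 reads in a library, and the low no-delay values of Atf3, Tnfrsf10b and Eda2r.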
